A study of Mus musculus with 8 samples.

Results

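The Na,K-ATPase beta subunit genes Atp1b1, Atp1b2 and Atp1b3 and the sodium-potassium-chloride cotransporter gene Slc12a2, whose product is called NKCC1, were followed in cochlear RNA-seq libraries from miR-29a WT mice and from miR-29a KO mice. The 4 genes were taken by symbol from the 21895 genes of the deposited expression table, and each matched 1 row. The table covers 8 libraries, WT1 to WT4 from wild-type mice and KO1 to KO4 from mice homozygous for the miR-29a deletion (miR-29a-/-), with whole cochlea as the tissue in all of them. The line is kept on a C57BL/6 background, both genotypes come from crosses of heterozygous mice, and the deletion is present in every cell of the body rather than in a chosen cell type. The series text gives the age as 21 days and the study's methods give 2 months, and no library received a treatment. Nothing in the labels says how many animals went into a library, so p-values measure the spread between these libraries. Genotype is taken from the labels alone, since miR-29a itself was not measured in the values used here.

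The Na,K-ATPase is the pump that exports sodium and imports potassium across the cell membrane. It is built from a catalytic alpha subunit and a beta subunit, and the beta subunit is needed for folding of the pump and its delivery to the membrane. NKCC1 brings sodium, potassium and chloride into the cell together, using the sodium gradient that the pump maintains. In the cochlea, both are dense on the basolateral side of the marginal cells of the stria vascularis, the epithelium that secretes potassium into endolymph, and both are also found in fibrocytes of the lateral wall. Mice that lack Slc12a2 are deaf. The comparison of WT with KO asks whether the messages for this uptake machinery differed in a cochlea without miR-29a.

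The sequence that defines the deleted microRNA is shown first, because a match to its seed is how a direct target is usually recognised. The mature strand, taken from RefSeq on GRCm38.p6, maps to the minus strand of chromosome 6 from 31062673 to 31062694, and its seed (bases 2 to 8) is in capitals.
miR-29a-3p: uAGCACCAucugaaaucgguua
A message that pairs with this seed holds TGGTGCT in DNA letters. That 7-base match was searched for on the transcript strand in the longest 3′-UTR that GENCODE mouse release M21 annotates for each gene, and 13.1% of 21045 genes held at least 1. Among the 4 genes, Atp1b1 held 1 match. It covers bases 850 to 856 of the 1167 in that 3′-UTR and lies on chromosome 1 of GRCm38, minus strand, from 164437420 to 164437426. The match is in capitals here with its neighbouring bases.
Atp1b1 3′-UTR: gcatcatgcgcTGGTGCTgcgt
The base after the match is not A, so the match is not extended to 8 bases. Of 1383 genes with a 3′-UTR within 10% of this length, 10.8% held a match. No match was present in the 3′-UTRs of Atp1b2 (1512 bases), Atp1b3 (869 bases) or Slc12a2 (2770 bases), and 13.2%, 7.91% and 24.5% of genes with 3′-UTRs of similar length held one. A match is only a description of the sequence and shows no binding.

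All 4 genes had the same coordinates in the deposited table and in GENCODE M21. Atp1b1 (ENSMUSG00000026576) lies on chromosome 1 from 164437109 to 164458355, Atp1b2 (ENSMUSG00000041329) on chromosome 11 from 69599736 to 69605942, Atp1b3 (ENSMUSG00000032412) on chromosome 9 from 96332655 to 96364442, and Slc12a2 (ENSMUSG00000024597) on chromosome 18 from 57878678 to 57946821. The 3′ end of Atp1b1, including the seed match, overlaps the opposite-strand gene Nme7, which ends at 164437725. The libraries were strand-specific, but the sources do not say whether strand was used in the counting. In Atp1b3, 9.71% of the 50-base words of its transcripts also occur in Gm1848, so a part of its reads could be shared with that gene. The other 3 genes shared 0 such words with any other gene.

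Expression is given as FPKM, fragments counted per unit of transcript length and scaled to the mapped fragments of the library, as the authors deposited it. The column totals ranged from 249221 to 288695, the counts behind them are not known, and the relative depth of the libraries, read from the ratios between values under 0.1 FPKM, was 0.952 to 1.17 of their median. In WT1, 17.6% of the total came from 10 genes, against 8.5% to 10.9% in the other libraries. WT1 and WT3 also stood apart in blood cell markers, and they did so in opposite directions. The summed FPKM of 7 neutrophil genes was 9387 in WT1 and 51.3 in WT3, against 653 in WT2, 889 in WT4 and 1635 to 4997 in the KO libraries. Results that rest on these libraries are therefore given with and without them. Cochlear identity was checked with 5 lateral wall fibrocyte genes, 7 hair cell genes and 5 marginal cell genes, and every one of these was present at a mean of at least 0.5 FPKM.

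None of the 4 messages differed between WT and KO by more than the spread between libraries. Their log2 differences (KO minus WT) lay between -0.30 for Atp1b2 and 0.09 for Atp1b3, and the WT and KO values of each gene overlapped. With limma on log2(FPKM + 0.1) over the 8 libraries, 0 of the 4 genes passed an unadjusted two-sided p-value of 0.05, the threshold the study used, and 0 passed after Benjamini-Hochberg adjustment over all genes tested. Exact two-sided permutation tests of the 8 libraries gave p = 0.886 for Atp1b1, 0.371 for Atp1b2, 0.657 for Atp1b3 and 0.857 for Slc12a2. Across all 14990 genes with a mean of at least 0.5 FPKM, 5.12% passed the unadjusted threshold, 691 higher and 76 lower in KO, and 0 passed the adjusted one. That split depended on scaling, with 402 higher and 361 lower after median-ratio scaling of the libraries, and 378 higher and 547 lower after quantile normalization.

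Atp1b1, the beta subunit that most epithelial pumps carry, was the most abundant of the 4 messages. Its FPKM was 186, 339.7, 518 and 395 in WT1 to WT4. In KO1 to KO4 it was 319.6, 346, 342 and 395. The 4 KO values fell inside the WT range, which ran from the lowest library of all, WT1, to the highest, WT3. WT libraries averaged 359.7 ± 137 and KO libraries 350.4 ± 31.7 (mean ± SD, n = 4 each). The limma log2 difference was 0.05 (standard error 0.32, adjusted p = 0.99), with a 95% interval from -0.68 to 0.78, so that changes of up to 0.626-fold or 1.71-fold were not separated from none. Without WT1, the log2 difference was -0.23, and without WT3 it was 0.26.

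**Figure D1:**
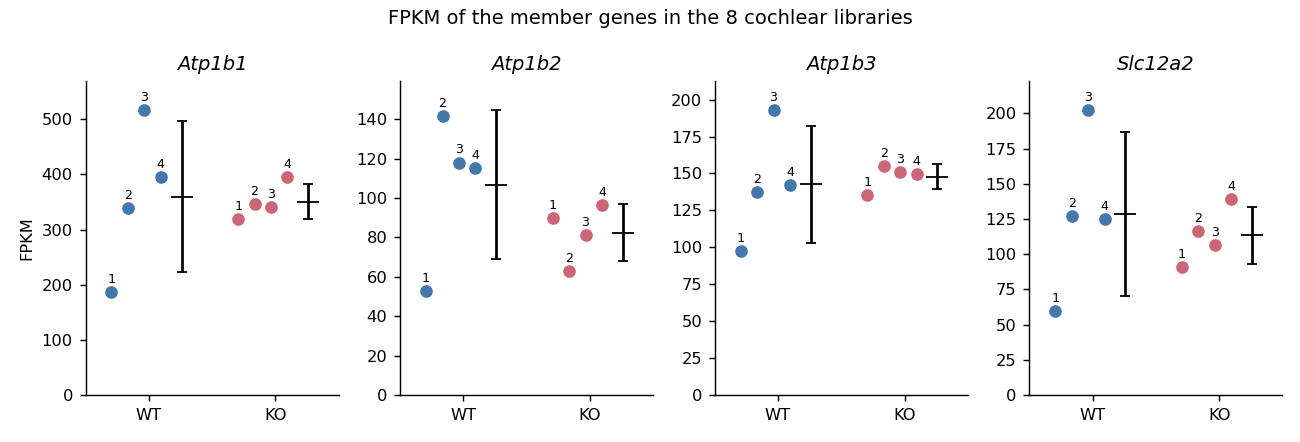
FPKM (vertical axes, from 0) of Atp1b1, Atp1b2, Atp1b3 and Slc12a2 in the 4 WT (blue) and 4 KO (red) libraries, numbered by replicate, with the mean and SD of each group in black. The KO points lie within the range of the WT points for each gene, and WT1 is the lowest library in each panel.

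Atp1b2, a beta subunit found in glia and neurons though not only there, and also known as an adhesion molecule on glia, had the largest difference of the 4. Its FPKM was 52.6, 142, 118 and 115 in WT1 to WT4. The KO values were 89.7, 62.8, 81.1 and 96.4. WT1 was again the lowest library, whereas each of the other WT libraries was above each KO library. WT libraries averaged 107 ± 38.1 and KO libraries 82.5 ± 14.5 (mean ± SD, n = 4 each). The log2 difference was -0.30 (standard error 0.31, limma adjusted p = 0.968), with a 95% interval from -1.01 to 0.40.

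Without WT1, Atp1b2 passed the study's threshold, with a limma log2 difference of -0.61 (unadjusted p = 0.0075, adjusted p = 0.148). The adjusted p-value of Atp1b2 ranged from 0.148 to 1.0 over the alternatives tried. Calls were then frequent over the whole table, since 19.5% of 15019 genes passed the unadjusted threshold without WT1 and 7.4% passed it lower in KO. The groups of 3 WT and 4 KO libraries did not overlap for 18.3% of genes, 7.17% being lower in KO. Without WT1, all 7 neutrophil genes and all 6 erythroid genes examined here also passed, higher in KO, and 1 of 5 Schwann cell genes passed, Mbp, with a log2 difference of -0.41, whereas 0 of 6 neuron genes passed. The part of such cells in the Atp1b2 value was not tested. Without both WT1 and WT3, the log2 difference of Atp1b2 was -0.65 (limma, unadjusted p = 0.0141, adjusted p = 0.212). That setting was chosen after seeing the data and leaves 2 WT libraries. Of 15055 genes tested in it, 2430 passed the unadjusted threshold, 1049 of them lower in KO.

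Atp1b3, a beta subunit found in many tissues, varied least. In WT1 to WT4 its FPKM was 97.2, 137, 193 and 142. In KO1 to KO4 it was 136, 155, 151 and 149. The KO libraries lay within a 1.14-fold range and the WT libraries within a 1.99-fold range. Averages were 143 ± 39.4 for WT and 148 ± 8.48 for KO (mean ± SD, n = 4 each), and the log2 difference was 0.09 (standard error 0.22, limma adjusted p = 0.983). The 95% interval from -0.40 to 0.59 was the narrowest of the 4.

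Slc12a2, the cotransporter that loads marginal cells with potassium and chloride, had an FPKM of 59.7, 127, 203 and 125 in WT1 to WT4. The KO values were 90.9, 117, 107 and 139. WT1 was the lowest and WT3 the highest library, and all 4 KO values lay between them. Averages were 129 ± 58.4 for WT and 113 ± 20.1 for KO (mean ± SD, n = 4 each). The log2 difference was -0.07 (standard error 0.34, limma adjusted p = 0.989), and its 95% interval from -0.86 to 0.71 was the widest of the 4. It was -0.40 without WT1 and 0.19 without WT3.

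**Figure D2:**
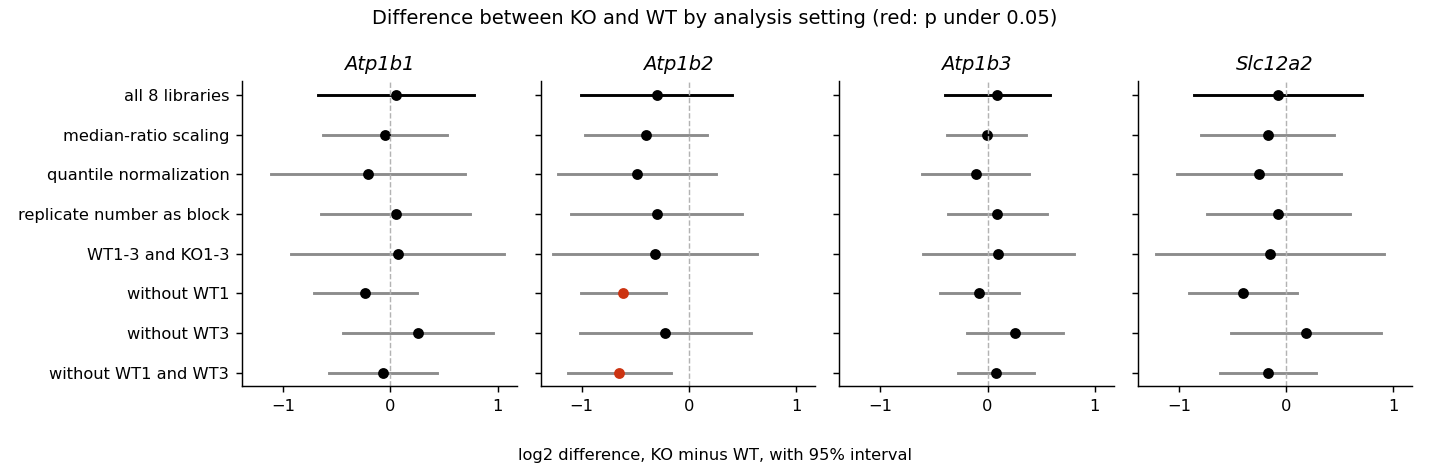
Log2 difference of each gene (horizontal axis, KO minus WT) with its 95% interval from limma, for all 8 libraries and for 7 other settings on the vertical axis, with unadjusted p-values under 0.05 in red. The intervals of Atp1b1, Atp1b3 and Slc12a2 cross 0 in every setting drawn, and those of Atp1b2 lie below 0 only without WT1 and without both WT1 and WT3.

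FPKM is scaled by transcript length, so the levels of the 4 genes can be ordered within a library. The order by mean log2 level was Atp1b1, Atp1b3, Slc12a2 and Atp1b2. Atp1b1 was above Atp1b3 in 8 of 8 libraries, by 2.40-fold on average (exact two-sided sign-flip permutation test over libraries, p = 0.0078, the smallest that 8 libraries allow, adjusted p = 0.0156 over the 6 pairs). Atp1b3 was above Slc12a2 in 7 of 8 libraries, by 1.25-fold (exact permutation test, p = 0.0156, adjusted p = 0.0188), with WT3 as the exception. Slc12a2 was above Atp1b2 in 7 of 8 libraries, with WT2 as the exception. The mean log2 level of Atp1b2 differed from that of Slc12a2 by -0.35, close to the SD of 0.37 between libraries (exact permutation test, p = 0.0391, adjusted p = 0.0391), so these neighbours were the least clearly separated. Among all 21895 genes, Atp1b1 ranked between 20 and 104 in FPKM, and Atp1b2 between 111 and 555.

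The share of each beta subunit in the summed FPKM of the 3 beta genes does not depend on scaling between libraries. Atp1b1 made up 55.4%, 54.9%, 62.4% and 60.5% in WT1 to WT4, and 58.6%, 61.3%, 59.5% and 61.6% in KO1 to KO4. Atp1b3 made up 28.9%, 22.2%, 23.3% and 21.8% in WT, and 24.9%, 27.5%, 26.4% and 23.3% in KO. The share of Atp1b2 was 15.6%, 22.9%, 14.2% and 17.6% in WT, and 16.4%, 11.1%, 14.1% and 15.0% in KO. Atp1b1 thus supplied most of the beta message in every library, and the groups overlapped for each share.

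The Atp1b2 share averaged 17.6% ± 3.79 for WT and 14.2% ± 2.25 for KO (mean ± SD, n = 4 each), a difference of -3.41 percentage points (exact two-sided permutation test, p = 0.171, adjusted p = 0.5 over 5 ratios). For Atp1b1 and Atp1b3, the shares were higher in KO by 1.95 and 1.46 percentage points (exact permutation tests, p = 0.371 and p = 0.4, adjusted p = 0.5 for each). The smallest p-value that 4 against 4 libraries allow is 0.0286. Summed over the 3 beta genes, WT libraries held 609 ± 204 FPKM and KO libraries 581 ± 41.6 (mean ± SD, n = 4 each).

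The FPKM of Slc12a2 relative to that of Atp1b1, a pair known from marginal cells, was 0.320, 0.373, 0.392 and 0.317 in WT1 to WT4. In KO1 to KO4 the ratio was 0.284, 0.337, 0.312 and 0.352. It varied 1.38-fold over the 8 libraries, whereas the FPKM of Slc12a2 itself varied 3.39-fold. On the log2 scale the ratio differed by -0.12, KO minus WT (exact permutation test, p = 0.257, adjusted p = 0.5). The log2 ratio of Slc12a2 to the sum of the beta genes differed by -0.07 (exact permutation test, p = 0.629, adjusted p = 0.629).

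**Figure D3:**
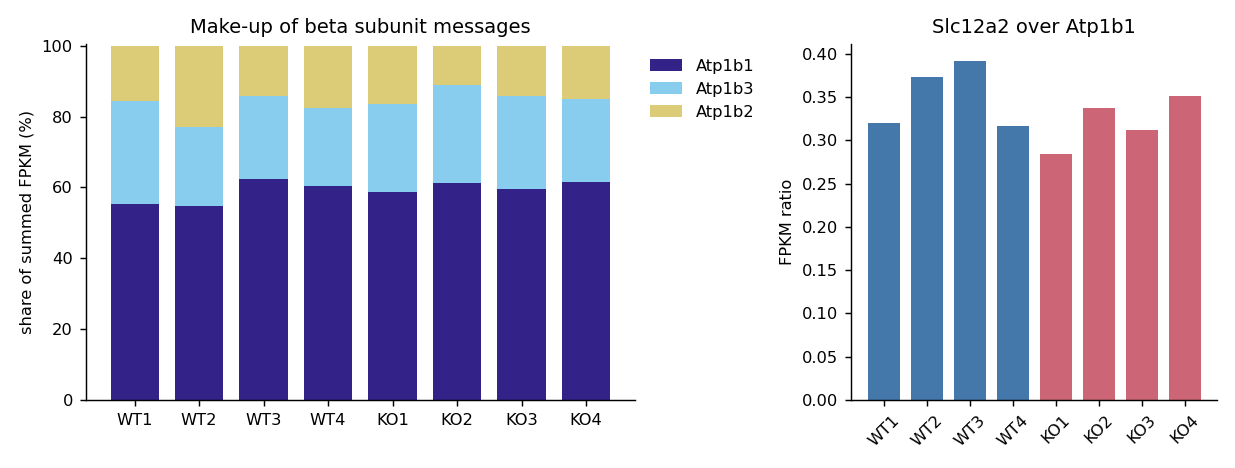
Left, share of Atp1b1, Atp1b3 and Atp1b2 (percent, vertical axis) in their summed FPKM in each library. Right, FPKM of Slc12a2 divided by that of Atp1b1 in each library, WT in blue and KO in red, on an axis from 0. Atp1b1 supplies between 54.9% and 62.4% of the beta message, and the ratio stays between 0.284 and 0.392.

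With all 8 libraries, the spread between WT libraries was larger than that between KO libraries for each gene. The coefficient of variation in WT was 38.2% for Atp1b1, 35.6% for Atp1b2, 27.6% for Atp1b3 and 45.4% for Slc12a2. In KO it was 9.05%, 17.6%, 5.74% and 17.7% in the same order. The larger WT spread rested on WT1 for Atp1b2, and on WT1 and WT3 together for Atp1b3 and Slc12a2. Atp1b1 varied more in WT with or without them. Without WT1, the WT coefficient of variation of Atp1b2 was 11.6%, below that of KO, and those of Atp1b1, Atp1b3 and Slc12a2 were 21.8%, 19.6% and 29.2%. Without WT3, the WT values were 35.2%, 44.3%, 19.7% and 36.8% for Atp1b1, Atp1b2, Atp1b3 and Slc12a2. Without both, only 2 WT libraries remained, and only Atp1b1 varied more in WT, at 10.7%, against 14.6% for Atp1b2, 2.50% for Atp1b3 and 0.970% for Slc12a2. The difference in spread was not tested.

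Markers of other cells moved between the same libraries. In WT1, where all 4 genes were lowest, the summed FPKM was also lowest for 6 neuron genes (358, against 675 to 993 in the other libraries) and 5 Schwann cell genes (394, against 688 to 1345). In WT3, where 3 of the 4 genes were highest, the sum of 6 erythroid genes was 449, against 2352 to 7381 in the other WT libraries and 4862 to 11959 in KO. Of the erythroid genes, 2 of 6 were higher in KO at the unadjusted threshold (Hbb-bt and Alas2), and the median log2 difference of the list was 1.81. The 7 neutrophil genes had a median log2 difference of 2.34, and 0 of 7 passed in limma. Of 6 B cell genes, 3 passed (Vpreb1, Igll1 and Pax5), all higher in KO, and their summed FPKM was 33.6 to 58.5 in WT and 58.0 to 101.4 in KO. Over all tested genes, 5.12% passed, 4.61% higher in KO, and the share higher in KO depended on scaling. None of these blood cell genes was listed at 0 in any library.

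Bone and muscle markers also varied between libraries. The summed FPKM of 5 osteoblast genes was 92.0 to 465 in WT and 573 to 709 in KO, without overlap. Taken singly, 3.5% of all tested genes had groups that did not overlap, in either direction. Of the 5 osteoblast genes, 1 passed, Col1a1, higher in KO, as did 4.61% of all tested genes. The 5 skeletal muscle genes summed to 0.471 to 6.13 in WT and to 3.42, 2.61, 272 and 24.0 in KO1 to KO4. The highest sum was in KO3, and 2 KO libraries lay within the WT range. Of the muscle genes, 1 (Mylpf) passed, and 1 was listed at 0 in at least 1 library. The part that these cells had in the values of the 4 genes was not tested. In whole tissue, fewer cells of a type and less RNA per cell cannot be told apart.

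**Figure D4:**
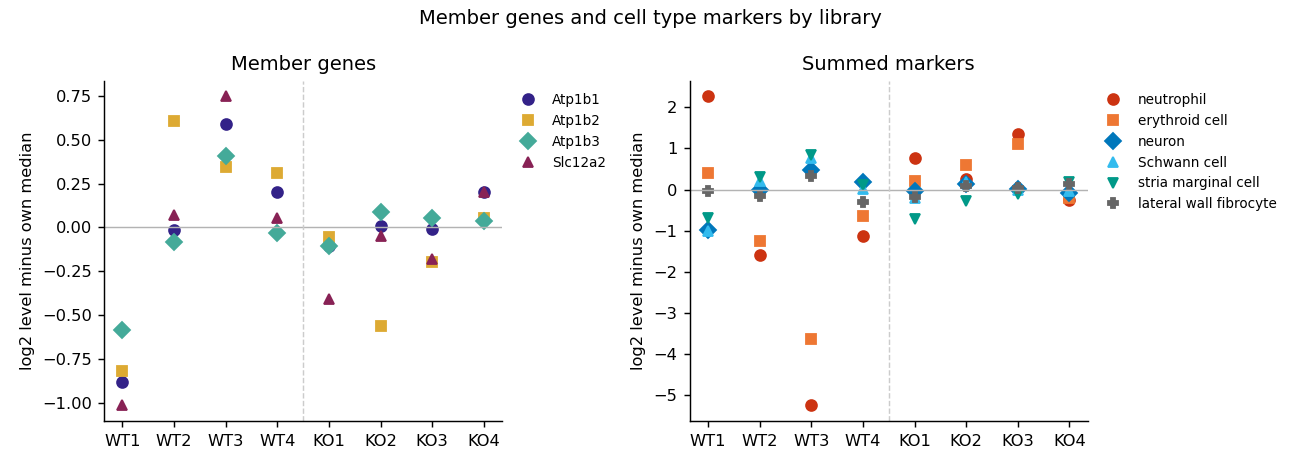
Level in each library on the log2 scale, relative to the median of the 8 libraries (vertical axes, which differ between panels), for the 4 member genes (left) and for the summed FPKM of 6 marker lists (right). The member genes are lowest in WT1, where the neutrophil sum is highest at 9387, and 3 of them are highest in WT3, where that sum is lowest at 51.3.

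The stria and lateral wall, where the pump and NKCC1 are concentrated, were read from their own markers. The sum of 5 marginal cell genes was 22.8, 45.6, 65.2 and 39.4 in WT1 to WT4, and 22.1, 30.0, 34.1 and 41.7 in KO1 to KO4. Of these 5 genes, 1 passed the unadjusted threshold, Bsnd, and the median log2 difference of the list was -0.51, against 0.10 over all tested genes. Of all tested genes, 5.12% passed, 0.507% lower in KO. Bsnd reached the filter of 0.5 FPKM only through the WT libraries (WT mean 0.874, KO mean 0.416), so its call is no reading of the marginal cells. These lists overlap with that of the potassium and chloride route, for example in Bsnd, Kcnq1, Kcne1, Kcnj10 and Gjb2. For 7 intermediate cell genes, of which 6 reached a mean of 0.5 FPKM, the sum was 81.1 to 178 in WT and 87.9 to 111 in KO. Of the 6, 1 gene passed, Tyr, lower in KO at a log2 difference of -0.65, and the median log2 difference was -0.41. The list was not uniform, since Mlana and Pmel lay above 0, at 0.43 and 0.02, and its other tested genes below 0. Of 5 fibrocyte genes, 0 passed, and their sums were 1758 to 2768 in WT and 1936 to 2413 in KO. The 7 hair cell genes, of which 0 passed, summed to 29.8 to 45.7 in WT and 25.9 to 37.5 in KO.

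The other genes of the pump were read from a list of 19, with the catalytic alpha subunits, the FXYD genes (small membrane proteins that tune the pump), the Nkain genes (membrane proteins that interact with it) and the related proton-potassium pumps. Of these, 12 passed the filter on low values and 0 passed the unadjusted threshold in limma, 4 with log2 differences above 0 and 8 below. Their median log2 difference was -0.02. Atp1b4, a further beta-type gene known from muscle, was among those under the filter and was listed at 0 in every library. For the 3 alpha subunit genes among them, the log2 differences lay between -0.19 and 0.06. The smallest p-value belonged to Nkain4, whose FPKM was 1.05, 3.77, 2.52 and 3.15 in WT and 1.15, 1.64, 1.46 and 2.48 in KO (log2 difference -0.53, limma adjusted p = 0.947). Fxyd3 and Fxyd7 followed, with log2 differences of 0.21 and -0.25. Without WT1, 3 of the 12 genes passed, all lower in KO, namely Nkain1, Nkain4 and 1 alpha subunit gene, against 19.5% of all genes passing and 7.4% passing lower in KO.

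Slc12a2 belongs to a family of cation-chloride cotransporters, and 6 of its 8 other members passed the filter on low values. In limma 0 of the 6 passed the unadjusted threshold, and their median log2 difference was 0.02. Slc12a3, the thiazide-sensitive sodium-chloride cotransporter, had the smallest p-value, at an FPKM of only 0.467, 0.703, 0.0324 and 0.304 in WT1 to WT4 and 0.960, 1.44, 0.617 and 0.485 in KO1 to KO4 (log2 difference 1.20, 95% interval -0.15 to 2.56, limma adjusted p = 0.947). Slc12a3 passed the filter of 0.5 FPKM only through the KO libraries (WT mean 0.376, KO mean 0.875). A gene this low was thus tested because it was high in KO, and its difference is no reading of the family. Slc12a9 had a log2 difference of 0.26. Without WT1, 1 of the 6 passed, Slc12a7, with a log2 difference of -0.44, when 19.5% of all genes passed.

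The WNK kinases and the kinases Stk39 and Oxsr1 below them switch NKCC1 on by phosphorylation. All 11 listed genes of this pathway passed the filter, 0 passed the unadjusted threshold in limma, and their median log2 difference was -0.08. Wnk3 came closest. Its FPKM was 1.496, 2.66, 3.21 and 3.03 in WT1 to WT4, and 1.57, 1.48, 1.69 and 1.81 in KO1 to KO4. The 4 KO values lay below WT2, WT3 and WT4 but overlapped with WT1 (log2 difference -0.58, 95% interval -1.19 to 0.02, unadjusted p = 0.0574, limma adjusted p = 0.947). Wnk1, the most abundant WNK gene, had a log2 difference of -0.16, and Cab39, a scaffold for these kinases, of 0.10. Without WT1, 2 of the 11 genes passed, Wnk3 and Stk39, with log2 differences of -0.82 and -0.38. The share of all genes that passed was then 19.5%, with 7.4% lower in KO.

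The potassium and chloride that NKCC1 brings in leave by other proteins, and 8 of 9 listed genes of that route passed the filter. Of these, 2 passed the unadjusted threshold, 1 in each direction, against 4.61% of all genes higher and 0.507% lower, and their median log2 difference was -0.39. Bsnd encodes barttin, the partner of the chloride channels that return chloride from marginal cells. Its FPKM was 0.631, 0.934, 1.21 and 0.717 in WT1 to WT4. In KO1 to KO4 it was 0.325, 0.448, 0.372 and 0.521. The groups did not overlap, as for 3.5% of all tested genes and 0.487% in this direction, and the log2 difference was -0.89 (standard error 0.31, unadjusted p = 0.0187, limma adjusted p = 0.947). Its mean over the 8 libraries passed the filter of 0.5 FPKM only through the WT libraries, since the KO mean was 0.416 and the WT mean 0.874, so a gene this low was tested because it was high in WT. With a filter at a mean of 1 FPKM it was not tested, and without WT3 it no longer passed (log2 difference -0.74, limma unadjusted p = 0.0525).

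Kcnj16, which encodes an inward rectifier potassium channel subunit, had an FPKM of 4.89, 9.72, 14.4 and 2.62 in WT1 to WT4 and of 12.9, 12.3, 16.0 and 16.5 in KO1 to KO4. WT3 lay within the KO range. The log2 difference was 1.12 (standard error 0.47, unadjusted p = 0.0412, limma adjusted p = 0.947). It no longer passed without any 1 of WT1, WT4, KO1, KO2, KO3 and KO4, with unadjusted limma p-values of 0.0588 to 0.0876. After median-ratio scaling its unadjusted limma p-value was 0.0563, and Bsnd, Kcne1 and Kcnq1 were among the genes that passed in that setting, all lower in KO. Of all 14986 genes tested with that scaling, 763 passed, 361 of them lower in KO, against 76 lower without it. Kcnq1, which encodes the potassium channel that opens to endolymph, had 8.31 ± 2.67 FPKM for WT, 5.64 ± 0.973 for KO (mean ± SD, n = 4 each) and a log2 difference of -0.51 (limma adjusted p = 0.947). Without WT1, 5 of the 8 genes passed, all lower in KO, in a setting in which 19.5% of all genes passed and 7.4% passed lower in KO.

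**Figure D5:**
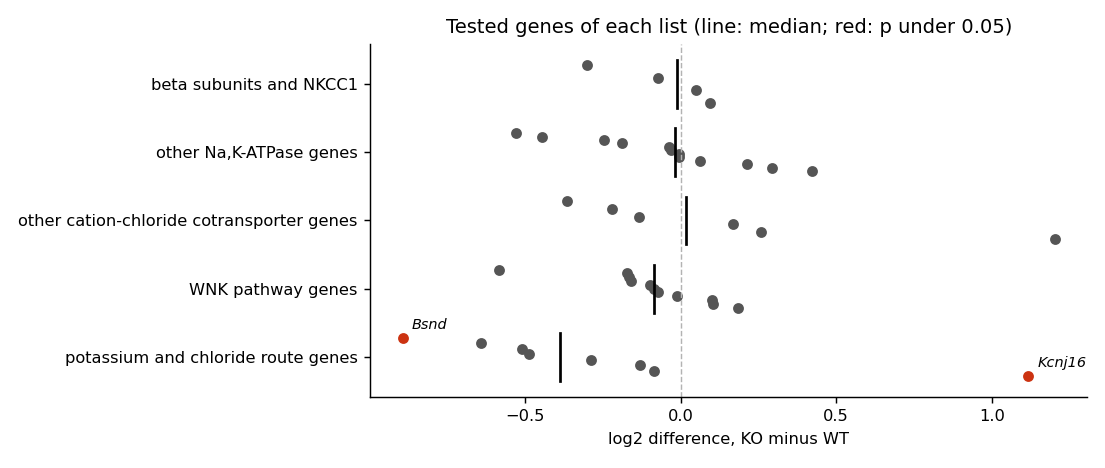
Log2 difference (horizontal axis, KO minus WT) of the tested genes in each of 5 lists (vertical axis), with the list median as a black line and unadjusted limma p-values under 0.05 in red. The 4 member genes lie between -0.30 and 0.09, and the 2 red points are Bsnd at -0.89 and Kcnj16 at 1.12. Over all tested genes, 5.12% passed. Bsnd reached the filter of 0.5 FPKM only through the WT libraries (WT mean 0.874, KO mean 0.416).

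The genes whose levels followed each member most closely over the 8 libraries were looked up among 9848 genes with a mean of at least 5 FPKM. These correlations describe 8 libraries that share depth and tissue make-up, and the genes were picked as the highest of many, so no p-value is given. For Slc12a2 they were Rapgef3, Ro60 and Sms, with Pearson's r of 0.995, 0.994 and 0.992. Leaving out WT1 and WT3, the libraries farthest from the median, gave 0.973, 0.974 and 0.989. Atp1b1 was followed most closely by Ppfibp1, Slc6a8 and Coq10b, with r of 0.994, 0.992 and 0.985, and with 0.909, 0.918 and 0.832 when WT1 and WT3 were left out. For Atp1b3 the closest were Sgpp1, Tgoln1 and Synm, at 0.986, 0.984 and 0.981, or 0.937, 0.851 and 0.816 without WT1 and WT3. Tubb4a and Sept4 were among the closest to Atp1b2, at 0.971 and 0.961, or 0.932 and 0.895 without WT1 and WT2, the libraries farthest from its median. Tubb4a, a tubulin of neurons and myelinating glia, had an FPKM of 49.6 on average and a log2 difference of -0.35.

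Among the members themselves, r was 0.966 between Atp1b1 and Slc12a2, 0.954 between Atp1b1 and Atp1b3, and 0.929 between Atp1b3 and Slc12a2. For Atp1b2, r was 0.709 to Atp1b1, 0.719 to Slc12a2 and 0.535 to Atp1b3. Without WT1 and WT3, r between Atp1b1 and Slc12a2 was 0.795. The other pairs rested on those libraries, since r without them was 0.298 between Atp1b1 and Atp1b3 and 0.297 between Atp1b3 and Slc12a2. For Atp1b2 it was then 0.227 to Atp1b1, 0.371 to Slc12a2 and -0.722 to Atp1b3, so the order of the pairs also depended on those libraries.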

How the data were processed

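Total RNA of mouse cochlea was depleted of ribosomal RNA and made into strand-specific libraries, and the authors mapped paired-end reads with Hisat2. The deposited values are FPKM per gene and library. The tool and annotation behind them are not given in the sources used here. Per the labels the build is mm9, whereas the gene coordinates are those of GRCm38. All per-sample columns were used, and 27 symbols that had become dates were restored from gene identifiers. The study tested counts with a count model, which FPKM do not allow, and its figure covers 3 libraries per group.

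Genes with a mean of at least 0.5 FPKM over the libraries fitted were tested on log2(FPKM + 0.1) with limma 3.58.1 in R 4.3.3, genotype as the only factor and a mean-variance trend. A fold change on this scale understates the change of low genes. Calls used an unadjusted two-sided p-value under 0.05, as in the study. Ratios were compared by exact permutation. Named genes were the members, the genes of 4 pathway lists that passed or had the 3 smallest p-values, and the 3 genes most correlated with each member. Other genes are named where a count or marker list needed them. Members and lists were chosen with earlier results of these data known. The fit was tested on simulated data. Individual values of some genes under this rule or these lists are not reported here. Alternatives were another pseudocount (1), no filter, a minimum mean FPKM of 1, 2 other scalings, no trend, a replicate block, replicates 1 to 3 only, each library left out in turn and, chosen after seeing the data, WT1 and WT3 left out together, and spreads without either or both.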

Additional observations from a re-analysis of the deposited data

How the results depend on the processing

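Changing the pseudocount, the filter on low values or the variance trend changed no direction or call among the members. Median-ratio scaling gave log2 differences of -0.050 for Atp1b1 and -0.0075 for Atp1b3, and quantile normalization gave -0.21 and -0.11, reversed in sign. The median of all genes moved from 0.10 to 0.0045 and -0.04 under these scalings, and each member was below that median in all 3. Leaving out each library in turn gave -0.23 to 0.26 for Atp1b1, -0.61 to -0.13 for Atp1b2, -0.077 to 0.25 for Atp1b3 and -0.40 to 0.19 for Slc12a2. The number of members that passed was then 0 to 1, with Atp1b2 passing without WT1. Of all genes, 347 to 2922 passed, against 767 with all libraries, with 2922 without WT1, 377 without KO2 and 347 without KO3. The counts were 0 to 3 for other pump genes, 0 to 1 for other cotransporters, 0 to 2 for the WNK pathway and 1 to 5 for the potassium and chloride route. The changes in the shares of Atp1b1, Atp1b2 and Atp1b3 were 0.809 to 3.32, -4.53 to -1.65 and 0.707 to 3.08 percentage points, and the log2 ratios of Slc12a2 to the beta sum and to Atp1b1 were -0.14 to 0.015 and -0.17 to -0.07. Without both WT1 and WT3, Atp1b1 was at -0.069, Atp1b2 passed at -0.65, and the lists gave 2, 1, 2 and 5 genes. In that setting 1 member passed, and 2430 of all 15055 genes tested, 1049 of them lower in KO. Of other pump genes, 1 passed under quantile normalization. Of other cotransporters, 1 passed under quantile normalization and 1 with the replicate block. Of the WNK pathway, 1 passed under either scaling, and Wnk3 passed with a pseudocount of 1 (log2 difference -0.42, limma unadjusted p = 0.0493). The potassium and chloride route gave 4 genes under median-ratio scaling and 1 with replicates 1 to 3 only. Over all genes, 763 of 14986 passed under median-ratio scaling, 925 of 14990 under quantile normalization and 674 of 14956 with replicates 1 to 3 only. The cause of these changes was not tested.

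The replicate numbers 1 to 4 occur in both genotypes. After subtraction of group means, the libraries of each number correlated across genes at 0.419, -0.24, -0.17 and 0.21, and 3 of 8 libraries were closest to their own number, so no pairing was assumed. With the replicate block, 838 genes passed, the log2 differences of the members were 0.05, -0.30, 0.09 and -0.07 as before, and 0 members passed. FPKM carry no counts, so counting error could not be given.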

Other observations

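Some genes of the lists varied widely between libraries, and these were chosen after their values were seen. Fxyd5, a pump regulator known from epithelia and blood cells, had an FPKM of 57.9 in WT1, against 6.05 to 10.3 in the other WT libraries and 7.15 to 32.5 in the KO libraries. Fxyd6, an FXYD gene of the nervous system and inner ear, ran the other way, with 20.4 in WT1, 77.6 to 119.6 in the other WT libraries and 56.9 to 105 in KO. Slc12a5, the potassium-chloride cotransporter of neurons, had 0.887, 23.0, 6.09 and 13.1 in WT1 to WT4 and 4.22, 1.98, 5.21 and 14.0 in KO1 to KO4. In limma the log2 differences (KO minus WT) of these genes were 0.29, 0.42 and -0.37, each with groups that overlapped.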
